A study of Mus musculus with 4 samples.

Results

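Endomucin (Emcn), podocalyxin (Podxl), CD34 (Cd34), CD93 (Cd93) and plasmalemma vesicle-associated protein (Plvap) were examined across mouse lung cells. The mice were WT or ERG CKO, the latter labelled with a genotype for endothelial deletion of Erg. These 5 genes of the 20076 in the deposited matrix were listed as endothelial cell (EC) surface genes, and Emcn was chosen from its higher counts in ECs of ERG CKO lungs, so its difference between genotypes is described here without a test. The data are single-cell RNA-seq counts of dissociated whole lung from 4 mice, 1 library each. The 2 WT mice were ERG fl/fl, with floxed Erg alleles and no Cre, and the 2 ERG CKO mice were CDH5-CreER(T):ERG fl/fl, in which a tamoxifen-activated Cre is driven by the promoter of the VE-cadherin gene and so acts in ECs. All mice, WT included, received 5 daily injections of 0.5 mg tamoxifen, and lungs were taken 90 days later. The labels do not give the age. Cre was carried only by ERG CKO mice, so that its presence and the loss of ERG cannot be told apart.

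Emcn, Podxl and Cd34 encode sialomucins, transmembrane proteins whose outer part is densely covered with sialylated O-linked sugars. They belong to the negatively charged coat on the luminal face of ECs, and CD34 and podocalyxin also serve, when carrying the right sulfated sugars, as ligands of L-selectin on leukocytes. Cd93 encodes a C-type lectin-like receptor that binds matrix proteins such as multimerin-2 and acts in EC adhesion and sprouting. Plvap encodes the protein that forms the diaphragms of fenestrae and caveolae and takes part in the control of permeability. In the lung, general capillary (gCap) ECs and aerocytes (aCap ECs), the thin cells that lie at the gas exchange surface, are the main capillary ECs.

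The members lie on separate chromosomes of mm10, the build given for the libraries, and positions were taken from GENCODE M21. Emcn spans chr3:137341067-137432185 on the plus strand and Cd34 spans chr1:194938819-194961279 on the plus strand. Podxl lies at chr6:31519488-31563981, Cd93 at chr2:148436640-148443563 and Plvap at chr8:71497765-71511752, all on the minus strand. ERG is an ETS factor, a family whose binding sites share the core GGAA. Promoter sequences from RefSeq (GRCm38.p6) were found for only 2 of the 5 members, Emcn and Cd34. These are also the members with higher counts in ERG CKO ECs, and no sequence of Podxl, Cd93 or Plvap was at hand to compare. The 250 bases before each RefSeq start, which differs from the GENCODE start above, are shown. They cover chr3:137340828-137341077 for Emcn and chr1:194938571-194938820 for Cd34, plus strand, 5′ to 3′, with each GGAA on either strand (TTCC where it lies on the other strand) in capitals.
Emcn: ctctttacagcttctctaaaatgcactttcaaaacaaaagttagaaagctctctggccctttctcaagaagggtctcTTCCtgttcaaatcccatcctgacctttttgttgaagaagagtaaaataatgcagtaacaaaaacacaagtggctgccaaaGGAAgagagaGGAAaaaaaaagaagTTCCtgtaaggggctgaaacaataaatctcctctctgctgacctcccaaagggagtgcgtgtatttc
Cd34: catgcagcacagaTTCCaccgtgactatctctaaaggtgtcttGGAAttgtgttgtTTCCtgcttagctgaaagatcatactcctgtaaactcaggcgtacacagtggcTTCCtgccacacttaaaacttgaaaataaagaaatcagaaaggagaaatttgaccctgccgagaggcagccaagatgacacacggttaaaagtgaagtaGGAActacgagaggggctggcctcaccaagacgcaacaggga
The Emcn sequence held 4 matches to the core and the Cd34 sequence 5. Among 32841 promoter records of the same length, 33.4% held at least 4 and 18.03% at least 5, with a median of 3. The longer form CAGGAAG, searched on both strands after the sequences were seen and overlapping the core, was found 1 time in each, and 10.8% of all records held it. A match describes the letters only and no site.

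The libraries held 1852 to 3097 cells with medians of 4611 to 4899 UMIs, where a UMI counts 1 captured RNA molecule. Libraries shared 0 to 4 cell barcodes in each pair. Xist, which is expressed from the inactive X chromosome, had UMIs in replicate 1 of each group only and the Y-linked Ddx3y in replicate 2 of each group only, so sex was balanced between genotypes. The targeted gene was detected in ECs of all libraries. Below, a pair of values for a group gives replicate 1 before replicate 2, and levels are in CPM, the UMIs of a gene scaled to a common total. Erg stood at 85.9 and 90.8 CPM (WT) and at 105 and 82.9 CPM (ERG CKO), a log2 fold change of 0.06 (SE 0.16, adjusted p = 0.905, edgeR). A count per gene cannot show whether an exon was lost, so these counts did not check the labels. ECs, named from Pecam1, Cdh5, Cldn5 and other markers, numbered 622 and 708 (WT) and 750 and 501 (ERG CKO). Their gCap, aCap, artery, vein and lymphatic subtypes were named from markers that held none of the 5 members.

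The question was which of these surface genes differed in ECs between WT and ERG CKO mice. Counts were summed over the ECs of a library and tested with edgeR, and a gene was called where its p, adjusted over all genes tested, was at most 0.05. Cd34 was higher in ERG CKO ECs and was the only 1 of the 4 tested members that was called, where 2.64% of the 10761 genes tested were called.

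Emcn had the widest gap between the groups. The WT libraries gave 296 and 344 CPM, and the ERG CKO libraries 876 and 984 CPM. Its mean was 320.4 ± 34.0 CPM in WT and 929.9 ± 76.8 CPM in ERG CKO (SD, n = 2 each), 2.90-fold higher in ERG CKO, and the ratio was 2.95 between the replicates numbered 1 and 2.86 between those numbered 2. These values are those that chose the gene.

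For Cd34 the WT libraries gave 238 and 223 CPM, and the ERG CKO libraries 440.4 and 556 CPM. Both ERG CKO libraries lay above both WT libraries. Fitted on the log2 scale, the difference was 1.07 (SE 0.15, adjusted p = 0.0198, edgeR quasi-likelihood test), or 2.10-fold. The call was lost when WT replicate 1 (adjusted p = 0.0772, edgeR) or WT replicate 2 (adjusted p = 0.114, edgeR) was left out, with log2 fold changes of 1.121 and 1.021.

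Podxl, the third sialomucin, did not go with the other two. It stood at 565 and 504 CPM (WT) against 385 and 507 CPM (ERG CKO), so that ERG CKO replicate 2 lay between the WT libraries. The fitted log2 difference was -0.30 (SE 0.16, adjusted p = 0.440, edgeR).

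Cd93 and Plvap lay lower in both ERG CKO libraries, without passing the test. Cd93 stood at 1302 and 1257 CPM (WT) against 1052 and 1044 CPM (ERG CKO), a log2 fold change of -0.33 (SE 0.12, adjusted p = 0.244, edgeR). Plvap stood at 1074 and 1168 CPM (WT) against 861 and 891 CPM (ERG CKO), a log2 fold change of -0.39 (SE 0.12, adjusted p = 0.173, edgeR). For both genes the groups did not overlap.

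**Figure D1:**
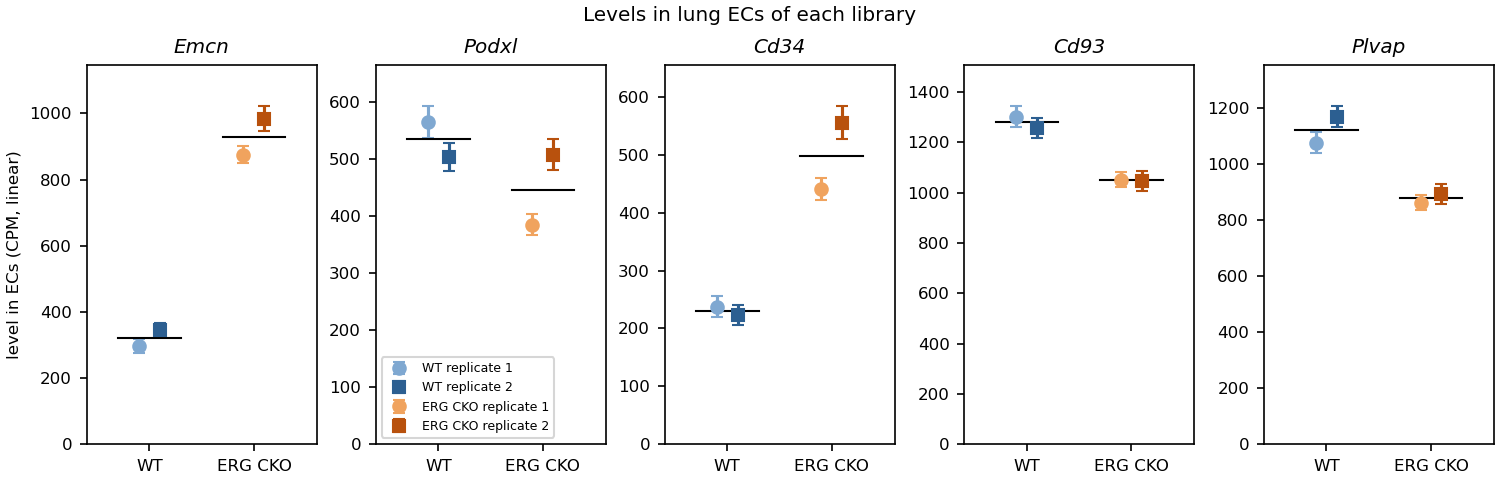
Level of each gene (CPM, linear axis from 0) in the ECs of the 4 libraries, with exact Poisson 95% intervals that cover counting error only; black lines are group means of 2 libraries. Emcn and Cd34 sit higher in both ERG CKO libraries, Cd93 and Plvap sit lower in both, and Podxl overlaps.

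The differences in level were accompanied by different shares of ECs with a UMI of the gene. To compare libraries at equal depth, each EC was thinned to 1000 UMIs, which left out 9 to 13 shallower ECs per library. Emcn was then seen in 24.2% and 26.6% (WT) against 46.2% and 48.2% (ERG CKO) of the ECs. Cd34 was seen in 14.9% and 13.6% (WT) against 29.6% and 33.4% (ERG CKO). For Cd34 the exact binomial 95% intervals of the WT libraries did not reach those of the ERG CKO libraries, the nearest bounds being 17.9% against 26.3%.

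Cd93 was seen in 66.0% and 66.2% of WT ECs against 53.1% and 49.2% in ERG CKO. Plvap was seen in 57.8% and 57.7% against 47.2% and 40.2%. Podxl was seen in 39.9% and 37.6% against 31.9% and 40.8%, with overlapping groups. In T cells, which should lack these genes, at most 1.09% of thinned cells had a UMI of any member in any library, and median depths before thinning were 5858 to 6369 UMIs in T cells and 3987 to 5449 in ECs. Without thinning, the shares of ECs were 57.2% and 62.9% against 78.8% and 79.0% for Emcn and 34.2% and 33.1% against 59.7% and 63.9% for Cd34.

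ECs with several UMIs of Emcn were rare in WT. At 2000 UMIs per cell, 2.92% and 4.85% of WT ECs held at least 3 UMIs of Emcn, against 25.4% and 30.6% of ERG CKO ECs. At least 5 UMIs were held by 0.515% and 1.18% (WT) against 9.03% and 11.8% (ERG CKO). For Cd34, at least 3 UMIs were held by 2.92% and 2.65% (WT) against 10.9% and 16.2% (ERG CKO).

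The EC subtypes differed in these genes in every library, which is given as a description since the subtypes were clustered from the same cells. gCap ECs numbered 468 and 515 (WT) against 416 and 322 (ERG CKO), and aCap ECs 46 and 71 (WT) against 133 and 102 (ERG CKO). Artery ECs numbered 11 to 20 and vein ECs 21 to 66 per library.

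Emcn was lowest in WT arteries, at 76.1 and 84.0 CPM, followed by gCap ECs at 260.4 and 285 CPM. The WT levels in veins, 469 and 537 CPM, and in aCap ECs, 538 and 577 CPM, adjoined and did not separate beyond their spread. In ERG CKO, arteries stood at 262 and 486 CPM, gCap ECs at 782 and 924 CPM, veins at 791 and 689 CPM and aCap ECs at 1205 and 1264 CPM. ERG CKO gCap and vein values overlapped.

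Cd34 was highest in aCap ECs in all 4 libraries, at 1009 and 823 CPM (WT) and 1003 and 1075 CPM (ERG CKO). In gCap ECs it stood at 121 and 89.7 CPM (WT) against 295 and 411 CPM (ERG CKO). Veins gave 199.6 and 206 CPM (WT) against 261 and 138 CPM (ERG CKO), with overlapping groups. Arteries varied from 21 to 296 CPM, and their order against veins and gCap ECs could not be read.

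Podxl was the most even of the 5 genes. Its WT levels were 559 and 479.9 CPM in gCap ECs, 780.0 and 671 CPM in aCap ECs, 718 and 452 CPM in arteries and 390.4 and 505 CPM in veins. In WT, aCap ECs lay above gCap ECs and veins, whereas arteries overlapped all 3. In ERG CKO, values from 273 to 653 CPM gave no order of the subtypes beyond their spread.

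Cd93 and Plvap shared a pattern that excluded aCap ECs. Cd93 stood at 1571 and 1541 CPM in WT and 1384 and 1418 CPM in ERG CKO gCap ECs, and at 174, 90.4, 173 and 80.1 CPM in aCap ECs. Plvap stood at 1199.7 and 1409 CPM in WT and 996 and 1138 CPM in ERG CKO gCap ECs, and at 128, 67.3, 113 and 35.8 CPM in aCap ECs. Veins adjoined gCap ECs for both genes, with 1062 to 1722 CPM of Cd93 and 1157 to 1501 CPM of Plvap. Arteries held less Cd93, at 609 to 935 CPM, while their Plvap of 618 to 1491 CPM overlapped gCap ECs. Lymphatic ECs, 3 to 7 cells per library, gave at most 16 UMIs of any member and no order was read from them.

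**Figure D2:**
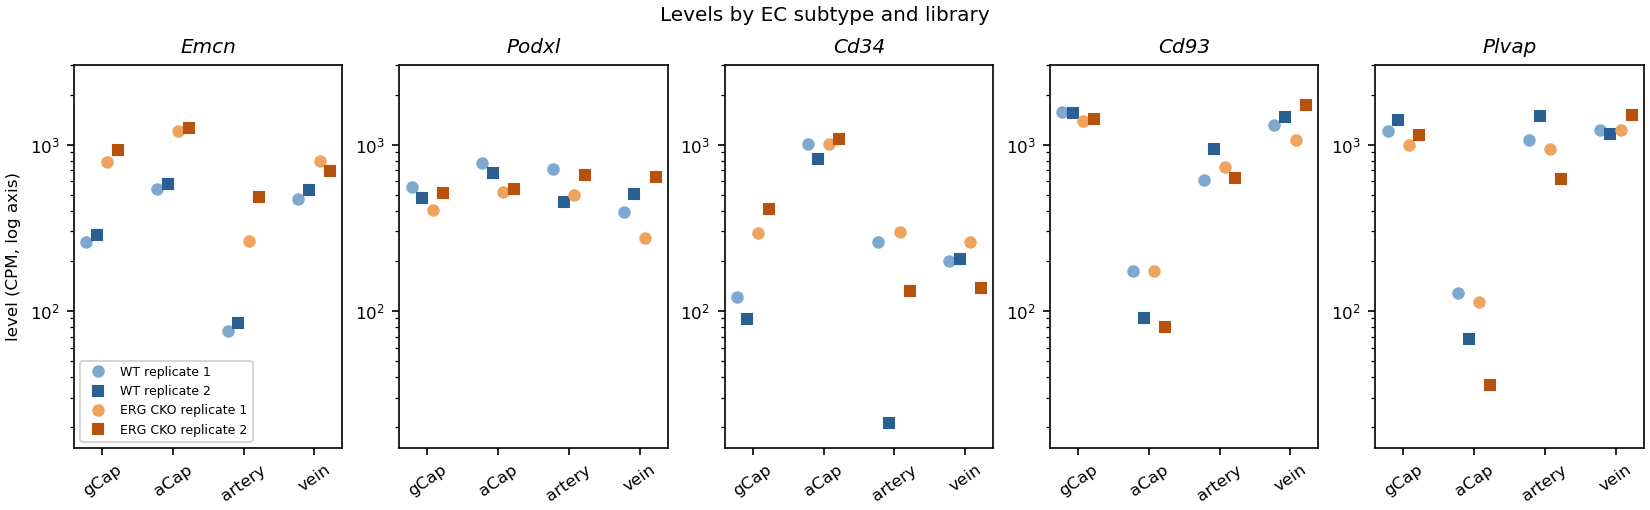
Level of each gene (CPM, log axis) in gCap, aCap, artery and vein ECs of each library, 1 point per library. Cd34 is highest in aCap ECs, Cd93 and Plvap are lowest there, and Emcn is higher in ERG CKO than in WT libraries in all 4 subtypes.

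Within arteries, Plvap and Cd93 separated the 2 artery clusters. A cluster led by Atp13a3, Esm1, Adgrg6 and Gja5 held 2280 and 2671 CPM of Plvap (WT) against 1255 and 1795 CPM (ERG CKO), from 4 to 11 cells per library. The other artery cluster, led by Mgp, Sfrp1 and Cdh13, held 346 and 369 CPM (WT) against 391 and 293 CPM (ERG CKO). Cd93 stood at 896 to 1508 CPM in the former and 259.8 to 446 CPM in the latter. Emcn showed 1 UMI and 0 UMIs in the second cluster in WT, and 242 and 529.5 CPM in ERG CKO.

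Another small group stood apart from the named subtypes. A cluster of 92 ECs led by Col13a1, Igfbp3, Efemp1 and Itih5, left unnamed, held 8 and 12 WT cells and 53 and 19 ERG CKO cells. Emcn reached 1859 and 1520.5 CPM in its ERG CKO cells against 527 and 231 CPM in its WT cells. It also carried much Plvap, at 770.0 to 1656 CPM, and Cd34, at 602 to 1014 CPM, but little Podxl, at 76.8 to 269.5 CPM. The median depth of these cells was 2069 UMIs.

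A gCap cluster of 88 cells, led by Atp13a3, A430106G13Rik and Zfp217, carried the highest Podxl of the EC clusters in 3 of 4 libraries, at 1292 and 1309 CPM (WT) against 953 and 1189.8 CPM (ERG CKO), and the highest Cd93 in all 4, at 2569 to 2902 CPM. Its median depth was 2192 UMIs, against 3906 to 4425 UMIs in the other gCap clusters, and the part of depth in this difference was not tested. In ERG CKO replicate 2, Podxl was higher in 1 artery cluster of 4 cells, at 1264 CPM.

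The test was then repeated within capillary subtypes. In gCap ECs Cd34 was called, with a log2 fold change of 1.70 (SE 0.20, adjusted p = 0.00594, edgeR) or 3.25-fold, the only call among the 4 tested members where 2.08% of 9868 genes were called. Podxl, Cd93 and Plvap gave log2 fold changes of -0.22 (SE 0.16), -0.19 (SE 0.12) and -0.32 (SE 0.14), with adjusted p of 0.644, 0.599 and 0.357 (edgeR). Emcn stood 3.13-fold higher in ERG CKO by its mean CPM.

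In aCap ECs none of the 4 tested members was called, where 10.6% of 7025 genes were called. Cd34 gave a log2 fold change of 0.16 (SE 0.17, adjusted p = 0.699, edgeR), and its groups overlapped. Podxl, at 780.0 and 671 CPM (WT) against 516 and 538 CPM (ERG CKO), gave -0.49 (SE 0.17, adjusted p = 0.0879, edgeR). DESeq2 also called none of the 4, where it called 5.45% of 7025 genes. The Podxl difference depended on how the libraries were joined. It shrank to a log2 of -0.031 (adjusted p = 0.941, edgeR) without alignment of the libraries, where 13.4% of 4534 genes were called. Plvap and Cd93 were too low in aCap ECs for a firm comparison, with SEs of 0.41 and 0.34 in log2 units. With ERG CKO replicate 1 left out, which leaves 1 ERG CKO library, Plvap gave a log2 fold change of -1.41 in aCap ECs. Emcn stood 2.21-fold higher in ERG CKO by its mean CPM.

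Whether the genotype difference itself differed between the subtypes was tested in a fit of both subtypes with library as a term, for the 4 genes not chosen from this difference. Only Cd34 was called, with a difference in aCap ECs that was lower than that in gCap ECs by a log2 of -1.56 (SE 0.17, adjusted p = 6.06e-06, edgeR), where 5.64% of 9551 genes were called. The call was lost without alignment of the libraries, where Cd34 gave -0.44 (adjusted p = 0.374, edgeR). The corresponding value for Emcn, given without a test, was -0.51, and it was 0.84 without alignment. Podxl, Cd93 and Plvap gave -0.28 (SE 0.16), 0.16 (SE 0.30) and 0.02 (SE 0.40), with adjusted p of 0.398, 0.874 and 0.990 (edgeR).

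**Figure D3:**
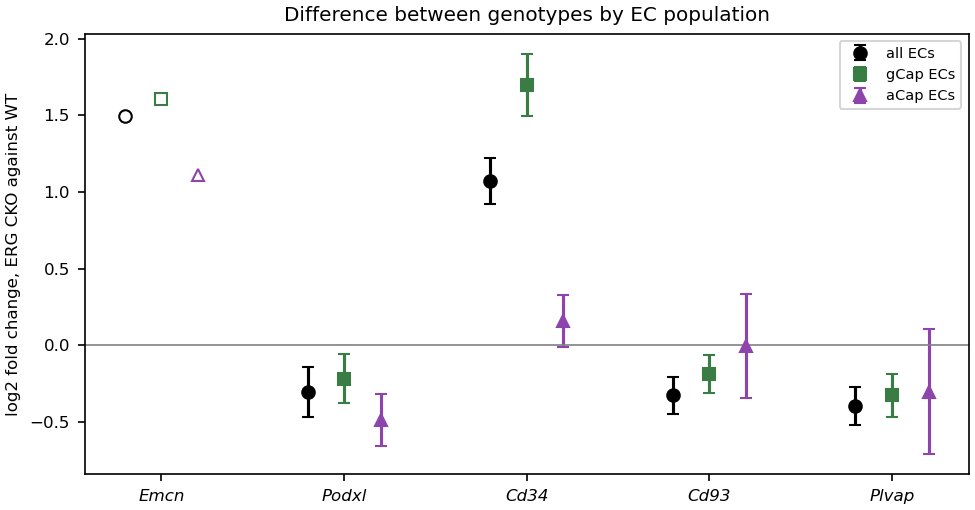
Log2 fold change of ERG CKO against WT in all ECs, gCap ECs and aCap ECs (edgeR, bars are 1 SE); Emcn, chosen from this difference, is drawn with open symbols and no error. Cd34 is at 1.70 in gCap ECs and 0.16 in aCap ECs, and Podxl, Cd93 and Plvap lie at or below 0 in all 3.

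The gCap values depended on how the libraries were joined. The clusters above were made after canonical correlation alignment of the 4 libraries, as in the methods of the study. Without alignment, the fold changes within cells named gCap shrank to a log2 of 0.63 for Cd34 (adjusted p = 0.486, edgeR) and 0.22 for Emcn. In that clustering a cluster whose leading genes included Myoz2, Slc12a2 and Tbxas1, left unnamed, held 239 and 212 ERG CKO cells but only 1 and 5 WT cells, or 31.8% and 42.3% of ERG CKO ECs and 0.172% and 0.701% of WT ECs. With alignment, 220 of these 457 cells were named gCap and 204 aCap. The members and the genes called in ECs had been left out of the genes used for clustering.

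Emcn and Cd34 were both higher in these cells than in the gCap clusters of the same clustering. Emcn stood at 1364 and 1416 CPM in the ERG CKO cells of this cluster. In the unaligned gCap clusters 0 and 1, Emcn stood at 276 and 347 CPM and at 227 and 359 CPM in ERG CKO, next to 256 and 269 CPM and 247 and 261 CPM in WT. Cd34 stood at 782 and 843 CPM in the ERG CKO cells of the unnamed cluster, and at 77.7 to 210.5 CPM in those of the 2 gCap clusters. In gCap cluster 0 Cd34 gave 102 and 90.4 CPM (WT) against 151 and 210.5 CPM (ERG CKO), without overlap. In gCap cluster 1 it gave 185 and 81.9 CPM (WT) against 77.7 and 203 CPM (ERG CKO), with overlapping groups.

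In other clusters of the same clustering Emcn was again higher in both ERG CKO libraries. An aCap cluster of 17 to 39 cells per library held 486 and 364 CPM (WT) against 1263 and 1555 CPM (ERG CKO). Its WT values came from 9 and 18 UMIs of Emcn. A second unnamed cluster, with 11 and 17 WT cells, held 233 and 232 CPM (WT) against 1233 and 1448 CPM (ERG CKO). Vein ECs held 454 and 523 CPM (WT) against 824 and 644 CPM (ERG CKO). Artery ECs held 56.5 and 42.8 CPM (WT), from 5 and 3 UMIs, against 202 and 497 CPM (ERG CKO). A second aCap cluster had only 3 and 6 ERG CKO cells, and its groups overlapped.

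The cells of the cluster led by Myoz2, Slc12a2 and Tbxas1 were lower in Cd93 and Plvap than the gCap clusters. Cd93 stood at 391 and 328 CPM in the unnamed cluster in ERG CKO, against 1608 and 1904 CPM and 2001 and 2211 CPM in ERG CKO gCap clusters 0 and 1. WT cells of those 2 clusters held 1478 to 1781 CPM of Cd93. Plvap stood at 217 and 290.2 CPM in the unnamed cluster, against 1194 to 1628 CPM in ERG CKO and 1176 to 1549 CPM in WT cells of the gCap clusters. For comparison, the larger ERG CKO aCap cluster held 481 and 179 CPM of Cd93 and 193 and 157 CPM of Plvap. Podxl stood at 452 and 464 CPM in the unnamed cluster, within the range of 399.7 to 707 CPM of the ERG CKO gCap clusters. These are levels of clusters made from the same cells and are given without a test.

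**Figure D4:**
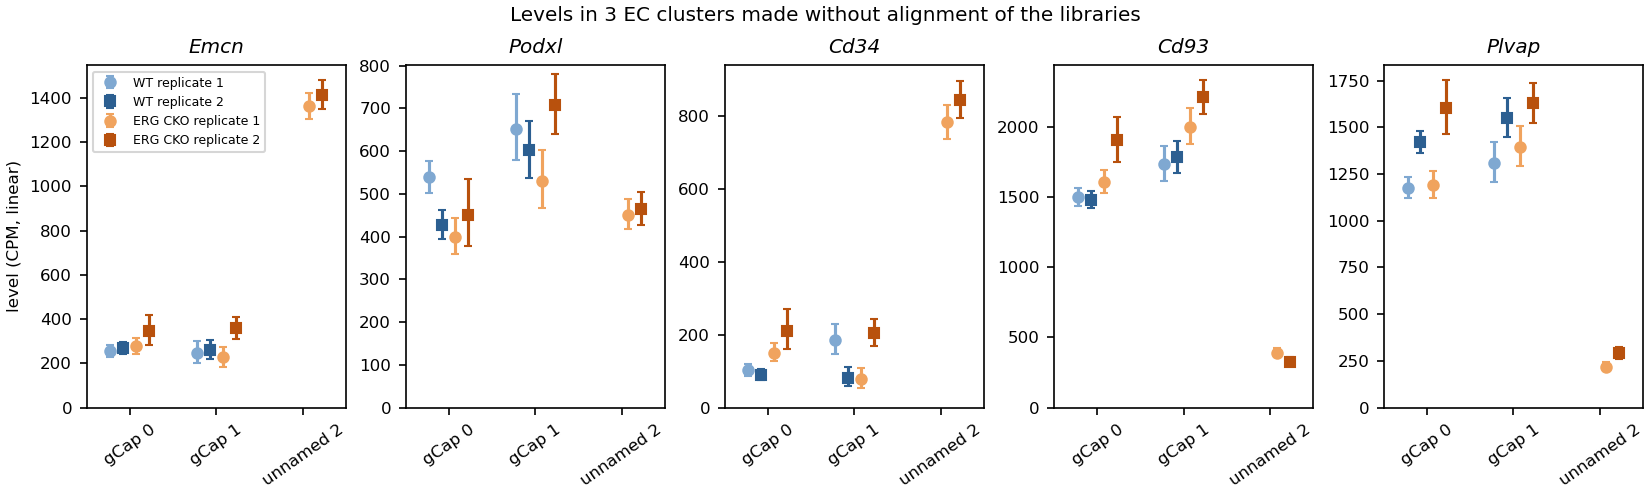
Level of each gene (CPM, linear axis from 0) in the 2 gCap clusters and the unnamed cluster of ECs clustered without alignment, with exact Poisson 95% intervals (counting error only); the unnamed cluster is drawn for ERG CKO libraries only, since the WT libraries hold 1 and 5 cells there. In the gCap clusters Emcn lies at 227 to 359 CPM in all libraries, and in the unnamed cluster at 1364 and 1416 CPM; the other EC clusters are not drawn.

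The EC differences were also set against the mix of subtypes as named with alignment. There aCap ECs made up 7.40% and 10.03% of the ECs in WT libraries, against 17.7% and 20.4% in those of ERG CKO. Without alignment the order reversed. Then 59 of 583 and 106 of 713 WT ECs were named aCap, against 36 of 752 and 40 of 501 ERG CKO ECs. The levels at an equal mix rest on the names with alignment. At an equal mix of subtypes in all libraries, Emcn stood at 324 and 356 CPM (WT) against 849.6 and 954 CPM (ERG CKO). Cd34 stood at 318 and 263 CPM (WT) against 408 and 504 CPM (ERG CKO), a smaller gap than before. Cd93 came to 1177 and 1173 CPM (WT) against 1124 and 1131 CPM (ERG CKO), and Plvap to 980.0 and 1098 CPM against 885 and 974 CPM. Podxl came to 583 and 513 CPM against 394 and 505 CPM.

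Genes that act with the members were compared in ECs from 6 lists holding 47 genes, of which 33 passed the filter on low counts. Of these, 2 were called (6.06%, where 2.64% of all genes tested were called), 1 higher and 1 lower, and both belonged to the enzymes that build the sialomucin sugars. The median log2 fold change of the 33 genes was -0.15, and that of all genes tested was 0.01.

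Gcnt1, the core 2 branching enzyme of O-linked sugars, was higher in ERG CKO ECs, at 5.63 and 6.24 CPM (WT) against 19.5 and 37.7 CPM (ERG CKO) (log2 fold change 2.18, SE 0.37, adjusted p = 0.0323, edgeR). In gCap and aCap ECs it had only 1 or 2 UMIs per WT library against 28 to 40 UMIs per ERG CKO library. It passed the filter on low counts in these subtypes through the ERG CKO libraries only. Its calls there are therefore not counted as further support, and the fold changes are not firm. They were a log2 of 3.80 in gCap ECs (SE 0.56, adjusted p = 0.0137, edgeR) and 3.87 in aCap ECs (SE 0.57, adjusted p = 0.00025, edgeR). In arteries, where it reached 87.0 CPM in WT and 247 CPM in ERG CKO, the groups overlapped.

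Chst2, a sulfotransferase that acts on the sugars of L-selectin ligands, was lower in ERG CKO ECs, at 40.5 and 45.9 CPM (WT) against 21.5 and 22.6 CPM (ERG CKO) (log2 fold change -1.01, SE 0.16, adjusted p = 0.0280, edgeR). Its counts came mostly from aCap ECs, with 275 and 259.6 CPM (WT) against 66.8 and 76.6 CPM (ERG CKO), with a log2 fold change of -1.93 in that subtype (SE 0.20, adjusted p = 1.11e-05, edgeR). In gCap ECs it gave 3.01 to 8.73 CPM and was not called (adjusted p = 0.471, edgeR). Of the 352 cells named aCap with alignment, 204 lay without alignment in the unnamed cluster led by Myoz2, which held 1 and 5 WT cells. Chst2 was among the leading genes of an unaligned aCap cluster with 42 and 67 WT cells but 3 and 6 ERG CKO cells. The part of such differences between cells in the aCap values of Chst2 and Gcnt1 was not tested. Both EC calls were lost without either WT library and at 1000 UMIs per cell. Chst2 gave a log2 fold change of -1.10 and -0.92 without WT replicates 1 and 2, and -0.18 at 1000 UMIs. The same values of Gcnt1 were 2.12, 2.26 and 1.96. The other 6 enzymes tested, among them the core 1 synthase C1galt1 (log2 fold change 0.48, SE 0.15, adjusted p = 0.179, edgeR), were not called.

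No gene of the other 5 lists was called. In the list of other sialomucins, Cd164 had the highest count and stood at 113 and 126 CPM (WT) against 139 and 139.7 CPM (ERG CKO). Of the cytoplasmic partners of CD34 and podocalyxin, the scaffold gene Slc9a3r2, which encodes NHERF2, stood at 1208 and 1102 CPM (WT) against 860.3 and 834 CPM (ERG CKO) (log2 fold change -0.49, SE 0.13, adjusted p = 0.112, edgeR). Of the CD93 family and its ligands, thrombomodulin (Thbd) stood at 1653 and 1504 CPM (WT) against 1539 and 1415 CPM (ERG CKO). Of the caveolar genes, Ehd4 stood at 1610.3 and 1636 CPM (WT) against 1353 and 2016 CPM (ERG CKO). The medians of these 4 lists were log2 fold changes of 0.07, -0.08, -0.13 and -0.31.

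All 9 pan-endothelial surface genes lay below 0, with log2 fold changes from -0.43 to -0.04 and a median of -0.28, and none was called. The tight junction gene Cldn5 stood at 4376 and 5030.5 CPM (WT) against 4388 and 4196 CPM (ERG CKO) (log2 fold change -0.17, SE 0.13, adjusted p = 0.612, edgeR). The values of Podxl, Cd93 and Plvap in ECs, -0.30, -0.33 and -0.39, lay within the range of this list.

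The genes most like each member were sought by Pearson's correlation of log2(CPM + 10) over 16 units, the 4 libraries by gCap, aCap, artery and vein ECs, which share libraries and differ in depth. Cd93 and Plvap were most alike among the members (r = 0.97), and each named the other among its 3 nearest genes. The others nearest to Cd93 were Cadm1 (r = 0.95) and Acer2 (r = 0.95), and those nearest to Plvap were Acer2 (r = 0.97) and Tmem2 (r = 0.97). Nearest to Cd34 were Camk1 (r = 0.93), Leprotl1 (r = 0.91) and Pmp22 (r = 0.91). Nearest to Emcn were Tnik, Runx1t1 and Agtrap (r = 0.88 each). Podxl had looser neighbours, C330007P06Rik (r = 0.80), Slc50a1 (r = 0.79) and Nubp2 (r = 0.76). Among the members, Cd34 and Plvap were the most opposed (r = -0.80), and Emcn and Cd34 gave r = 0.64.

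ECs held 70.7% to 88.2% of the UMIs of each member in each library. Outside ECs the members were followed as endothelial RNA in other cells, beside the 9 pan-endothelial genes. In T cells, the 5 members stood at 0% to 1.54% of the level in ECs of the same library, and the medians of the 9 pan-endothelial genes there were 0.242% to 1.31%. Over the pooled immune classes, Emcn gave 0.764 and 4.79 CPM (WT) against 8.18 and 8.49 CPM (ERG CKO). As a share of the EC level of the same library this was 0.258% and 1.39% (WT) against 0.934% and 0.862% (ERG CKO), with overlapping groups.

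Fibroblast barcodes carried far more. Emcn stood at 71.2 and 76.9 CPM in WT and at 420.4 and 391 CPM in ERG CKO fibroblasts, or 24.0%, 22.3%, 48.0% and 39.7% of the EC level. The 9 pan-endothelial genes had medians of 22.4% and 31.4% (WT) against 42.2% and 33.7% (ERG CKO) there, with a full range of 17.7% to 50.7%. Fibroblasts numbered 124 and 73 (WT) against 160 and 25 (ERG CKO). Emcn therefore lay within the range of the pan-endothelial genes in every library.

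Cd34, which fibroblasts are known to express, was the exception in WT. It stood at 149 and 179 CPM in WT and 222 and 149.9 CPM in ERG CKO fibroblasts, which was 62.7% and 80.5% of the EC level in WT and 50.4% and 27.0% in ERG CKO. In WT these shares lay above the range of the 9 pan-endothelial genes, and in ERG CKO within it. In fibroblasts Cd34 was not called between genotypes (log2 fold change 0.27, SE 0.25, adjusted p = 0.874, edgeR), where 0.577% of 7626 genes were called. The part of endothelial RNA in these fibroblast values was not tested.

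Platelet barcodes also carried the members, with Emcn at 116 and 87.0 CPM (WT) against 634 and 361 CPM (ERG CKO) from 38 to 175 barcodes per library, and pan-endothelial medians of 34.5% to 58.5% of the EC level. As a share of the EC level Emcn gave 39.0% and 25.3% (WT) against 72.4% and 36.7% (ERG CKO). This was within the range of the 9 pan-endothelial genes in WT replicate 1, below it in WT replicate 2 and ERG CKO replicate 2, and above it in ERG CKO replicate 1, where they reached 58.2%. In epithelial cells Emcn gave 17.5 and 7.48 CPM (WT) against 104 and 171 CPM (ERG CKO). The pan-endothelial medians moved alongside in the epithelial cells, being 6.47% and 5.30% (WT) against 19.6% and 13.1% (ERG CKO), and their part in the Emcn values was not tested.

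Cd93 was also found in interstitial macrophages and monocytes, cell types where it is known to be expressed. Interstitial macrophages held 82.1 and 73.3 CPM (WT) against 273 and 324 CPM (ERG CKO), from 7 to 42 cells per library, while Plvap stood at 18.2 and 0 CPM and 5.80 and 0 CPM in the same cells. Monocytes held 23.4 to 76.9 CPM of Cd93, or 2.24% to 7.31% of the EC level, against 0 to 30.7 CPM of Plvap. Mean Cd93 in alveolar macrophages was 22.2 CPM (WT) and 22.1 CPM (ERG CKO), near the 29.5 and 19.7 CPM of B cells. Neutrophils held a mean of 106 CPM (WT, SD 103) and 87.4 CPM (ERG CKO, SD 105), with 138 and 21.1 CPM of Plvap. The part of endothelial RNA in these values was not tested.

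**Figure D5:**
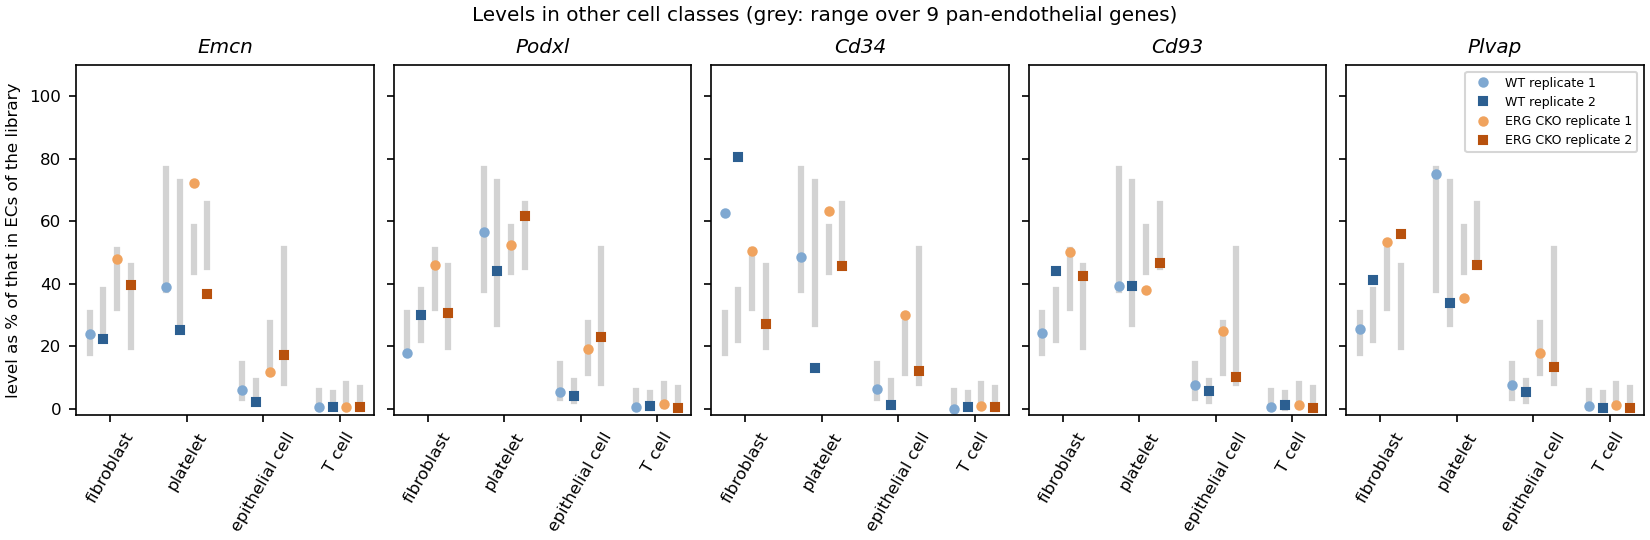
Level of each gene in fibroblasts, platelets, epithelial cells and T cells as a percent of its level in ECs of the same library, 1 point per library; grey bars span the 9 pan-endothelial genes. In fibroblasts Emcn lies within the grey bars in all libraries, Cd34 lies above them in WT (62.7% and 80.5%), and all members lie near 0 in T cells.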

How the data were processed

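The authors dissociated whole lungs, made droplet libraries with the 10x Genomics GemCode system, read them on a NextSeq 500 and processed reads with Cell Ranger 3.1.0 against mm10, per the labels. The study's methods name Liberase and DNase and the labels a commercial dissociation kit. The annotation is not given in the sources used here. The deposited values are raw UMI counts of 20076 gene symbols in 9363 cells, with no normalization. The study kept fewer cells after a quality filter whose limits are not stated, and here all 9363 were kept. Samples were grouped by the genotype in their labels, and nothing states whether same-numbered mice were paired. The members, gene lists and tests were chosen with earlier results of these data known. The 66 cells (0.705%) that Scrublet (in scanpy 1.11.5) called doublets were kept.

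Cells were clustered in Seurat 5.3.0 (R 4.3.3) with 2000 variable genes, canonical correlation alignment, 30 dimensions and resolution 0.8, and ECs again with 20 dimensions and resolution 0.6, leaving out the members, the partner genes and the 284 genes called in ECs. Clusters were named from marker lists, with at least 3 markers detected in at least 10% of cells. The limits on second classes and on leading genes in the naming were chosen after the data were seen. These names were rebuilt here, so values may differ from those of the study for that reason. A cluster of 982 cells with a low depth stayed unnamed. Its cells held 3.30% to 10.9% of the UMIs of a member.

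Counts were summed per library and class, with the mouse as the replicate, and compared by quasi-likelihood in edgeR 4.0.16 (TMM, filterByExpr, Benjamini-Hochberg over all genes tested), checked on simulated counts. DESeq2 1.42.0 was an alternative. The SE is the size of the log2 fold change divided by the square root of F. The smallest p of an exact permutation of 2 against 2 mice is 0.333, and p-values measure only the spread between these mice. Replicates differed by more than sampling noise (chi-square per degree of freedom 3.94 in WT and 7.69 in ERG CKO). Intervals are exact at 95% and cover counting error only. Named genes were the 5 members, each partner gene called in ECs and, for a list without a call, its gene with the highest count. Of 20076 symbols, 13 were on 2 rows. The test of the subtype difference had been planned for all 5 members, and its p for Emcn is not given because Emcn was chosen from the genotype difference.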

Additional observations from a re-analysis of the deposited data

Results flagged for a closer look

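The effect of genotype on Cd34 differed between the capillary subtypes by a test of the difference itself. It was lower in aCap than in gCap ECs by a log2 of -1.56 (SE 0.17, adjusted p = 6.06e-06, edgeR). Both ERG CKO libraries lay above both WT libraries in gCap ECs (121 and 89.7 CPM against 295 and 411 CPM), whereas in aCap ECs the libraries overlapped. Without alignment of the libraries the value was -0.44 (adjusted p = 0.374, edgeR). With 2 libraries per group no single library could be judged as standing apart.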

How the results depend on the processing

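The limits were 2 mice per group, cell names rebuilt from markers, and low counts of Cd93 and Plvap in aCap ECs. In ECs, of the 4 tested members 0 to 1 were called when each library was left out in turn, and 3 with the replicate block (Cd34, Cd93 at adjusted p = 0.0390 and Plvap at adjusted p = 0.0103, edgeR), where 13.4% of all genes tested were called against 2.64% without the block. The correlation of same-numbered deviations from the group means was 0.327 over 2 pairs, and nothing in the labels pairs the mice, though same-numbered mice were alike in Xist and Ddx3y. In gCap ECs 0 members were called without alignment, where 0.0421% of 9509 genes were called, against 2.08% with alignment. Podxl, Cd93 and Plvap turned there to a log2 of 0.016, 0.29 and 0.099. In aCap ECs, leaving out a library left 1 library in a group, so only log2 fold changes are given for that setting. There, on the log2 scale, Cd34 turned to -0.11 at 1000 UMIs per cell, and Cd93 turned to 0.0081 with no filter on low counts and 1.05 without alignment. Plvap turned to 0.68 without alignment, and Podxl shrank from -0.49 to -0.031 in that setting. Without a library, Cd93 ranged from -0.70 to 0.47 and Plvap from -1.41 to 0.26. Of the partner genes, 0 to 6 were called without a library, 11 with the replicate block, 7 with no filter on low counts, 0 at 1000 UMIs per cell and 1 with ECs gated on single cells. The share of all genes called under these settings was 0.441% to 5.88%, 13.4%, 6.41%, 1.6% and 1.34%, in this order. Cd34 in fibroblasts ranged from -0.16 to 0.47 without a library and turned to -0.078 at 1000 UMIs per cell. For the difference between aCap and gCap effects, Emcn turned to 0.84 without alignment, and Plvap to -0.0058 with no replicate block. The gap in the share of ECs with a UMI, in percentage points, was 18.9 (Emcn), 28.2 (Cd34) and -10.1 (Cd93) at full depth, and 24.5 (Emcn), -7.95 (Podxl), 24.8 (Cd34) and -17.8 (Plvap) at 2000 UMIs. With doublets left out, Cd34 and Plvap in immune cells came to a mean of 0.743% and 0.667% of the EC level. The cause was not tested. Leaving out the unnamed EC subclusters, chosen after seeing the data, did not move the count of members called.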

Other observations

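The unnamed low-depth cluster, 141 to 444 cells per library with 8 EC markers passing the naming limits, was in no comparison. Emcn stood there at 228 and 249 CPM in WT and 452 and 567 CPM in ERG CKO, and Cd34 at 141 and 202 CPM in WT and 292 and 417 CPM in ERG CKO. Podxl, at 575 and 813 CPM in WT and 466 and 685 CPM in ERG CKO, exceeded its level in ECs of the same library in all 4 libraries, whereas Plvap, at 876 and 866 CPM in WT and 639.6 and 467 CPM in ERG CKO, lay below it in all 4.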
